A study of Homo sapiens with 6 samples.

Results

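HBEGF, 5 other EGF-like ligands (AREG, EREG, BTC, TGFA and NRG1), 3 ERBB receptors (EGFR, ERBB2 and ERBB3) and the sheddase ADAM17 were followed through a FOXL2 knock-down (KD) in KGN cells. These 10 genes, of the 60671 in each table, were picked by symbol, and they were chosen with their values in this same KD contrast already known, so that their log2 fold changes are given as a description with no test. KGN is a human cell line derived from a granulosa cell tumour, and the cells used here had been genome-edited to carry only wt FOXL2 alleles (genotype FOXL2 WT/WT). In one condition they received 30 pmol of siRNAs against FOXL2 and in the other 30 pmol of a scrambled control siRNA, and RNA was extracted after 30 h, with 3 libraries per condition. Each of the 3 FOXL2 siRNA libraries received another pool of 3 siRNAs, and the pools had siRNAs in common, so the siRNA mixture itself was not replicated. Nothing in the labels says that the libraries came from separate cultures, and a p-value then measures the spread between these libraries only.

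The EGF family works through a small set of membrane receptors. A ligand is made as a transmembrane precursor, a metalloprotease such as ADAM17 cuts it at the cell surface, and the released EGF-like domain joins receptors into dimers that phosphorylate each other and feed the RAS-ERK and PI3K-AKT cascades. In the ovulatory follicle, AREG, EREG and BTC relay the LH signal from mural granulosa cells to the cumulus. HBEGF binds EGFR and ERBB4, holds heparin through a basic stretch, and its precursor is the receptor of diphtheria toxin. NRG1 binds ERBB3 and ERBB4. ERBB2 has no known ligand of its own, and ERBB3 has little kinase activity and signals mainly in dimers with ERBB2.

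What the ligands share is the EGF-like domain, with 6 cysteines. The pattern searched has 7 residues between the first and second cysteine, then 4 to 5, 10 to 13, 1 and 8. These spacings were set to those of the ligands studied here, so a match in each ligand was fixed in advance. The pattern was found once in each of the 6 ligands, in none of the 3 receptors and not in ADAM17. Among the protein-coding genes of GENCODE v29 it was found in 17 of 19684 (0.0864%). That share counts genes with these spacings, not all genes with EGF-like domains. The stretch from the first to the last cysteine spans 36 residues (108 bases) in HBEGF, AREG, EREG, BTC and TGFA and 40 residues in NRG1. The coding bases of the 5 ligands studied here that bind EGFR are shown, 5′ to 3′ on the coding strand. They are shown because this stretch is the part that reaches the receptor, and the capitals mark the 6 cysteine codons.
HBEGF: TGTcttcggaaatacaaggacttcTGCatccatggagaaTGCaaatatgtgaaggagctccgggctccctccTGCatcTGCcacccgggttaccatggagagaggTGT
AREG: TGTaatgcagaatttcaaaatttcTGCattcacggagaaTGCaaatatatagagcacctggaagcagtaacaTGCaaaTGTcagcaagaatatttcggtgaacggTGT
EREG: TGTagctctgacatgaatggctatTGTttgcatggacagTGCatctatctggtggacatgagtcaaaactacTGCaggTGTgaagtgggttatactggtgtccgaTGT
BTC: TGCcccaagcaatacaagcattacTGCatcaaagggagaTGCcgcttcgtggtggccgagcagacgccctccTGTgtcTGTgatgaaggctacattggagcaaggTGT
TGFA: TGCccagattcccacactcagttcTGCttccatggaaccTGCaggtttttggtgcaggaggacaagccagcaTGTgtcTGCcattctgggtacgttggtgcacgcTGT
In the order printed, the stretches lie at residues 108 to 143, 146 to 181, 68 to 103, 69 to 104 and 47 to 82 of the precursors, which have 208, 252, 169, 178 and 160 residues. Over this stretch HBEGF was most like AREG (19 of 36 residues identical, 52.8%), then BTC (47.2%), NRG1 (45.0% over 40 aligned positions), TGFA (41.7%) and EREG (36.1%). BTC and TGFA were as like each other as HBEGF and AREG (52.8%). Over the whole proteins, EGFR shared 49.0% of aligned positions with ERBB2 and 39.3% with ERBB3, and ERBB2 shared 38.6% with ERBB3.

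HBEGF (ENSG00000113070) lies at chr5:140332843-140346631 of GRCh38 on the minus strand, and no exon of another annotated gene overlaps its exons. EREG (chr4:74365143-74388751, plus strand), AREG (chr4:74445134-74455009, plus strand) and BTC (chr4:74744759-74794686, minus strand) lie within 486.2 kb of chromosome 4 together with EPGN, a further ligand. TGFA lies at chr2:70447280-70554193 and ADAM17 at chr2:9488486-9556732, both on the minus strand. EGFR (chr7:55019021-55211628), ERBB2 (chr17:39687914-39730426), ERBB3 (chr12:56076799-56103505) and NRG1 (chr8:31639386-32767959) lie on the plus strand. Exons of ADAM17 share 1465 bases with genes of the opposite strand (IAH1 and AC073195.1), those of ERBB2 765 bases (PGAP3 and MIEN1) and those of EGFR 186 bases (EGFR-AS1), while ERBB3 shares 31 bases with AC034102.2 on its own strand. The library kit keeps the strand, but the setting used in counting is not given in the sources used here, so these counts may hold reads of the neighbouring gene.

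The total expected counts lay between 23843192 and 28791954 per library. FOXL2, a forkhead transcription factor of the granulosa lineage and the target of the siRNAs, had 10.1 ± 0.596 CPM with the control siRNA and 2.77 ± 0.487 CPM with the FOXL2 siRNAs (SD, n = 3). On the log2 scale this was -1.88 with a standard error of 0.142 (edgeR quasi-likelihood test, Benjamini-Hochberg adjusted p = 0.00267). CPM are TMM-scaled counts relative to library size, and TPM are also corrected for transcript length. Of 9 granulosa markers, FOXL2, INHBA and NR5A1 were above 1 TPM in every library, and the other 6 (FSHR, AMHR2, CYP19A1, INHA, GATA4 and WT1) were under 1 TPM in every library, FSHR and WT1 being listed at 0 throughout. Several defining granulosa markers were thus at or near 0, and the cells are called KGN cells here. Markers of theca (CYP17A1, INSL3), germ cells (DDX4, DAZL), endothelium (PECAM1, CDH5) and epithelium (EPCAM, CDH1) stayed under 1 TPM in every library. Among the leukocyte markers, PTPRC lay between 0.40 and 1.01 TPM and CD68 between 52.2 and 85.2 TPM. CD68 was lower in every FOXL2 siRNA library (47.9, 51.9 and 59.8 CPM against 67.2, 60.7 and 67.9 CPM in the control libraries), with a log2 fold change of -0.29 (edgeR adjusted p = 0.233), and its part in the results was not tested. Of the Sertoli markers, SOX9 lay between 5.09 and 9.55 TPM, with conditions that overlapped, and DMRT1 at or under 0.04 TPM. Of 9 genes that respond to double-stranded RNA, edgeR called none, and 1 had an unadjusted p below 0.05 (11.1%, beside 13.5% of all genes tested). It was OAS2, which was lower in every FOXL2 siRNA library (log2 fold change -0.47, edgeR adjusted p = 0.160). FOXL2 siRNA replicate 2 stood apart on the first principal component, with a score of 40.9 against -17.2 to -0.02 for the other 5 libraries.

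In control cells the family was led by NRG1 and by the receptors EGFR and ERBB2, and HBEGF had rank 5 of 10. Levels between genes are compared in TPM. NRG1 had 60.6 ± 1.89 TPM, EGFR 40.1 ± 2.41, ERBB2 35.5 ± 2.47 and ADAM17 23.2 ± 1.53 TPM (SD, n = 3). HBEGF followed with 9.13 ± 0.851 TPM, then AREG with 6.29 ± 0.941, ERBB3 with 5.13 ± 0.856 and BTC with 2.73 ± 0.322 TPM. EREG (0.677 ± 0.116 TPM) and TGFA (0.237 ± 0.0643 TPM) came last. Between neighbours in this order, only the ranges of AREG (5.28 to 7.14 TPM) and ERBB3 (4.25 to 5.96 TPM) overlapped in the 3 control libraries. EGFR and ERBB2 were close, since the lowest EGFR value was 37.7 TPM and the highest ERBB2 value 37.4 TPM. The order of the 10 genes by mean TPM was identical after FOXL2 siRNA. Of the receptors, ERBB4 did not pass the filter on low counts and had at most 0.224 CPM in any library.

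**Figure D1:**
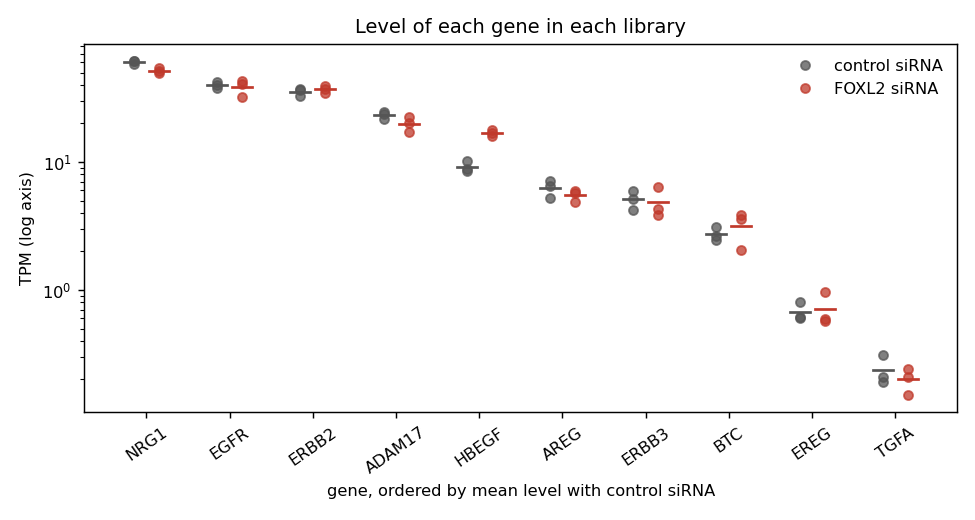
Level of each of the 10 genes in TPM (log axis) in each library, with control siRNA in grey and FOXL2 siRNA in red; points are libraries and lines are means of 3. HBEGF has the largest ratio of the means, with values from 8.51 to 10.1 TPM in the control libraries and from 16.1 to 17.7 TPM after FOXL2 siRNA.

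HBEGF was higher in every FOXL2 siRNA library than in every control library. Its counts were 311, 300 and 393 in control siRNA replicates 1, 2 and 3 and 628, 534 and 719 in FOXL2 siRNA replicates 1, 2 and 3. In TPM the values were 8.51, 8.78 and 10.1 with the control siRNA and 16.1, 16.7 and 17.7 with the FOXL2 siRNAs. The conditions did not overlap, and the spread within each was small beside the distance between them. After TMM the means were 13.1 ± 1.36 and 23.3 ± 1.47 CPM (SD, n = 3), a ratio of 1.78, and relative to the control mean the 3 FOXL2 siRNA libraries had 175%, 168% and 190%. The log2 fold change was 0.83 (standard error 0.0990). In TPM the ratio of the means was 1.84. The effective length that RSEM estimated for HBEGF stayed between 2078 and 2164 bases in all 6 libraries, so the ratio differed little between the scales. In bulk RNA, a change in the level per cell and a change in the share of cells that express the gene cannot be told apart.

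edgeR called 1 of the 9 members tested, HBEGF, beside 0.255% of all 15663 genes tested (40 genes), and 0.109% called higher (17 genes). By log2 fold change, HBEGF had rank 3 among the 17 genes called higher and rank 142 among all 15663 genes tested. By unadjusted p, 3 members (HBEGF, NRG1 and ADAM17) were below 0.05, beside 13.5% of all genes tested, and the same 3 had CPM values without overlap between the conditions, beside 20.5% of all genes tested. DESeq2, the tool named in the study's methods, also called 1 member, HBEGF, beside 3.06% of the genes to which it gave an adjusted p. Since these values chose the genes, nothing is read from the counts. With 1 library fewer, the call of HBEGF was often lost while its log2 fold change stayed close. It passed the threshold in 2 of the 6 fits that left out 1 library, and it was lost without FOXL2 siRNA replicate 3 (log2 fold change 0.78) and without control siRNA replicate 1, 2 or 3 (0.79, 0.78 and 0.92). In these 4 fits the genes called over all genes tested also fell, to 9, 2, 3 and 2. Without FOXL2 siRNA replicate 2, the library that stood apart, the log2 fold change was 0.86 and the call was kept.

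**Figure D2:**
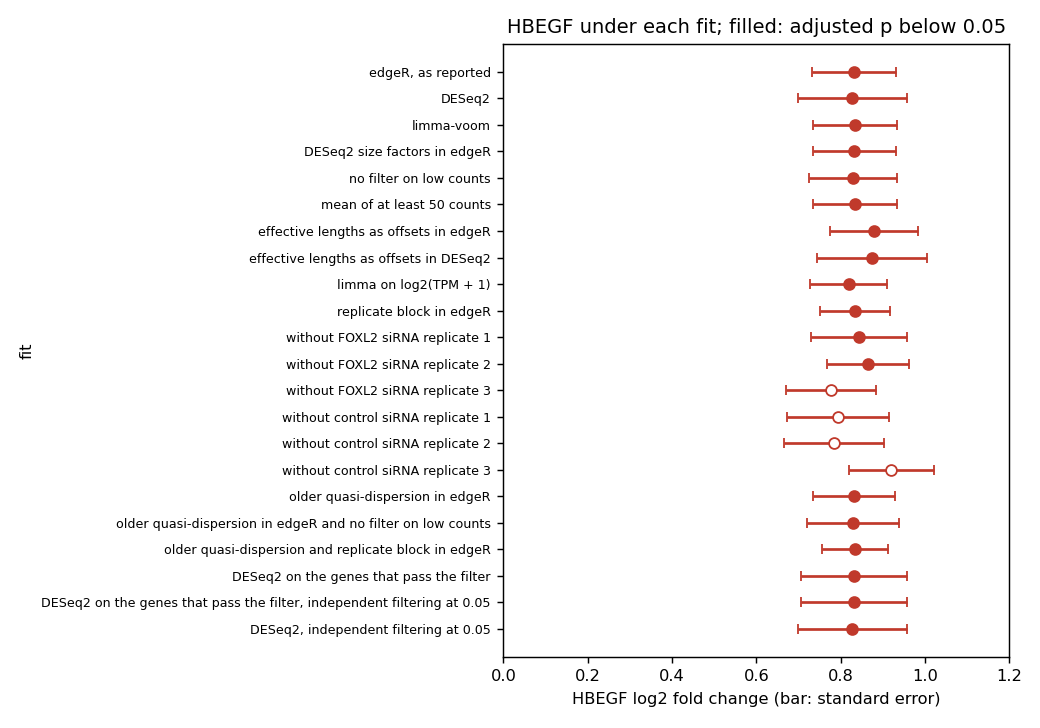
HBEGF log2 fold change (FOXL2 siRNA minus control siRNA) with its standard error under the reported fit and 21 alternatives; filled points passed an adjusted p of 0.05 over all genes of that fit. All estimates lie between 0.78 and 0.92, and the 4 open points are fits that left out 1 library.

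None of the other EGFR ligands was called, and the values of each overlapped between the conditions. AREG had counts of 128, 92 and 127 with the control siRNA and 97, 97 and 120 with the FOXL2 siRNAs, which overlapped after normalization (4.53 ± 0.697 against 3.91 ± 0.319 CPM, SD, n = 3). The log2 difference was -0.22 ± 0.155 (standard error). BTC had 89, 72 and 82 counts against 121, 117 and 74. In CPM, replicates 1 and 2 of the FOXL2 siRNA (4.43 and 4.84) lay above every control library (2.94 to 3.55). Replicate 3 (2.57 CPM) lay below every control library, and the log2 fold change was 0.29 (standard error 0.234). EREG had 53, 44 and 51 counts against 49, 55 and 49, and its log2 fold change was -0.02 (standard error 0.190). TGFA, transforming growth factor alpha, was near the limit of detection, with 15, 11 and 4 counts against 8, 7 and 10, and did not pass the filter. The estimates of AREG, EREG and BTC, the 3 ligands of the chromosome 4 cluster, differed in sign. None of the 3 was called, and EREG changed sign in 5 of 20 alternative fits, so no difference in direction is read from them.

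NRG1, the most abundant member, was lower in every FOXL2 siRNA library. Its TPM values were 58.4, 61.6 and 61.8 with the control siRNA and 51.8, 53.8 and 49.6 with the FOXL2 siRNAs. The conditions overlapped neither in TPM nor in CPM. The log2 fold change was -0.19 (standard error 0.0713), and NRG1 was not called.

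Summed over HBEGF, AREG, EREG, BTC and TGFA, the mRNA of EGFR ligands came to 19.9, 17.3 and 20.0 TPM with the control siRNA and 25.2, 27.7 and 26.3 TPM with the FOXL2 siRNAs. Without HBEGF the sums were 11.4, 8.56 and 9.90 TPM against 9.18, 10.95 and 8.61 TPM, which overlapped. HBEGF made up 42.9%, 50.6% and 50.5% of the sum with the control siRNA and 63.6%, 60.5% and 67.3% with the FOXL2 siRNAs. Sums of TPM weigh transcripts and say nothing of how much ligand is released.

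The receptors overlapped between the conditions. EGFR, the receptor of HBEGF, had 37.7, 40.3 and 42.5 TPM with the control siRNA and 32.3, 43.2 and 40.7 TPM with the FOXL2 siRNAs. The low value was that of FOXL2 siRNA replicate 1, and the log2 fold change was -0.05 (standard error 0.104). ERBB2 had 32.7, 37.4 and 36.4 TPM against 37.3, 34.7 and 39.0 TPM, and its log2 fold change was 0.03 (standard error 0.0784). ERBB3 had 219, 220 and 339 counts against 250, 193 and 239. One control library, replicate 3, held the highest count, and the log2 fold change was -0.26 (standard error 0.155). The effective length of ERBB3 ran from 2099 to 3181 bases across the libraries, so its TPM values (4.25 to 5.96 against 3.87 to 6.38) also carry that estimate. The sum of the 3 receptors was 74.6 to 84.9 TPM in the control libraries and 75.9 to 83.6 TPM in the FOXL2 siRNA libraries.

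ADAM17, which sheds HBEGF, AREG, EREG and TGFA, was lower in CPM in every FOXL2 siRNA library, with 38.1, 34.2 and 37.8 CPM against 46.7, 44.2 and 42.8 CPM in the control libraries. The log2 fold change was -0.28 (standard error 0.0735), and ADAM17 was not called. In TPM the conditions overlapped (22.3, 17.3 and 20.3 against 23.5, 24.6 and 21.6 TPM), and the effective length ran from 2494 to 3118 bases. The log2 fold changes of the 8 members tested other than HBEGF lay between -0.28 and 0.29, and the median of all 9 was -0.05, beside 0.01 over all genes tested.

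**Figure D3:**
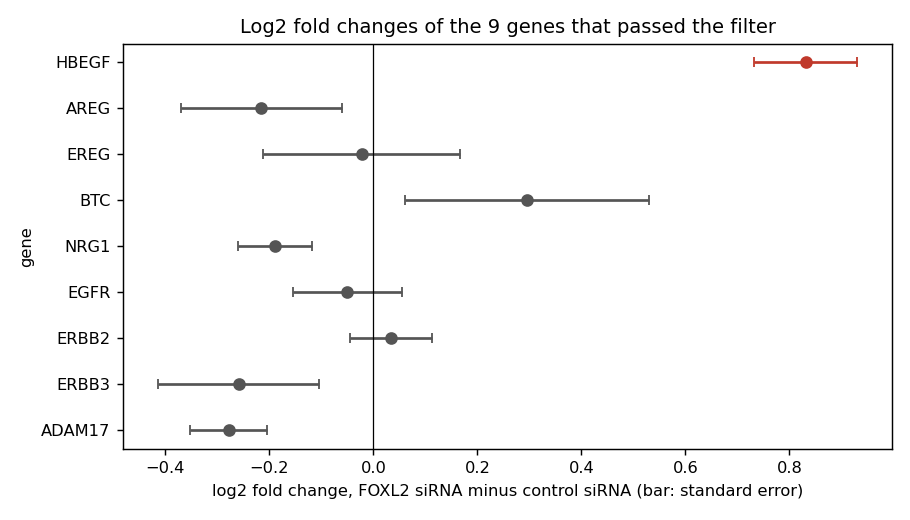
Log2 fold change (FOXL2 siRNA minus control siRNA) of the 9 members that passed the filter on low counts, with the standard error of the edgeR fit; HBEGF, the member that was called, is red. HBEGF stands at 0.83, and the other 8 lie between -0.28 and 0.29.

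The rest of the pathway was read from 12 lists of 102 genes, set up by function. Of these, 97 passed the filter on low counts and edgeR called 0, with 20 at an unadjusted p below 0.05 (20.6%, beside 13.5% of all genes tested), 13 of them higher and 7 lower. DESeq2 called 3 of the 88 to which it gave an adjusted p, ADAM19 (lower) and PTX3 and STAT3 (higher), beside 3.06% of all genes. Once effective lengths were used as offsets it called 8 of 89, beside 2.85% of all genes. Their log2 fold changes ran from -0.48 to 0.66 with a median of 0.03, beside 0.01 over all genes tested. The gene of smallest unadjusted p is given for each list but that of the RAS-ERK genes, and none of them passed edgeR's threshold. For the other ligands it was EGF (log2 fold change -0.21, standard error 0.175), the founding member of the family. EPGN, NRG3 and ERBB4 did not pass the filter.

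Upstream of the receptors, the list of ligand shedding (9 tested) had ADAM19, a metalloprotease that cleaves neuregulins, with 154, 154 and 149 CPM for the control siRNA and 89.4, 108 and 131 CPM for the FOXL2 siRNAs. The conditions did not overlap, and its log2 fold change was -0.48 (adjusted p = 0.152 with edgeR and 0.00476 with DESeq2). Of the 9 genes, 6 had a log2 fold change above 0 and 3 below. RHBDF2, another of them, was higher in every FOXL2 siRNA library (log2 fold change 0.34, adjusted p = 0.213 with edgeR and 0.149 with DESeq2). With DESeq2 and effective lengths as offsets, the adjusted p was 0.00393 for RHBDF2 and 0.0104 for ADAM19. Of the 5 cell surface partners of the HBEGF precursor, the gene of smallest p was CD44, which carries heparan sulfate in some isoforms. CD44 had a log2 fold change of -0.31 (adjusted p = 0.357 with edgeR, 0.174 with DESeq2 and 0.0102 with DESeq2 and effective lengths as offsets), and FOXL2 siRNA replicate 2 (864 CPM) lay within the control range of 851 to 889 CPM. CD9, a tetraspanin that associates with the precursor, stood at 0.03 on the log2 scale (standard error 0.0739).

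Downstream, the gene of smallest p among the 11 adaptors was the exchange factor SOS2, with a log2 fold change of 0.21 (edgeR adjusted p = 0.243). Of the adaptors, 6 lay above 0 and 5 below. At an unadjusted p below 0.05, 1 was higher and 3 were lower (36.4%, beside 13.5% of all genes tested). The CPM values of 6 adaptors did not overlap between the conditions (54.5%, beside 20.5% of all genes tested). Of the 10 RAS-ERK genes, 4 had a log2 fold change above 0 and 6 below, with a median of -0.08. None of the 9 PI3K-AKT genes had an unadjusted p below 0.05 or conditions that did not overlap. PIK3R1, a regulatory subunit, had a log2 fold change of 0.14 (edgeR adjusted p = 0.520). STAT3, a transcription factor activated by cytokine and growth factor receptors, had 145, 147 and 148 CPM with the control siRNA and 182, 167 and 183 CPM with the FOXL2 siRNAs. Its conditions did not overlap, and its log2 fold change was 0.27 (adjusted p = 0.115 with edgeR and 0.0162 with DESeq2).

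Early response genes and some feedback inhibitors are induced by ERK signalling, and the list of feedback inhibitors was not limited to such genes. Of 17 feedback inhibitors, 12 had a log2 fold change above 0 and 5 below, with a median of 0.15 (0.01 over all genes tested). An unadjusted p below 0.05 was found for 3 of the 17 (17.6%, beside 13.5% of all genes tested). SPRY2, a Sprouty protein that restrains the RAS pathway, had 3.07, 3.67 and 3.84 CPM with the control siRNA and 6.33, 5.58 and 4.82 CPM with the FOXL2 siRNAs. These values did not overlap, and the log2 fold change was 0.66 (adjusted p = 0.131 with edgeR and 0.0871 with DESeq2). Of 13 ERK early response genes tested, 9 lay above 0 and 4 below, with a median of 0.17. Of these 13, MYC, ETV4, PHLDA1 and CCND1 had an unadjusted p below 0.05, all higher (30.8%, beside 13.5% of all genes tested). CCND1 overlapped between the conditions, with 1017 CPM in FOXL2 siRNA replicate 2 and 1048 CPM in control siRNA replicate 3. The 4 below 0 were EGR1 (-0.18), FOS (-0.16), FOSL1 (-0.12) and JUN (-0.07). MYC had a log2 fold change of 0.25 (adjusted p = 0.174 with edgeR, 0.0718 with DESeq2 and 0.0129 with DESeq2 and effective lengths as offsets). Of the 13 tested genes of receptor ubiquitination and endocytosis, 4 lay above 0 and 9 below, and SH3KBP1, an adaptor of the ligase CBL, had -0.19 (edgeR adjusted p = 0.313). Whether any of these lists differs from all genes was not tested.

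**Figure D4:**
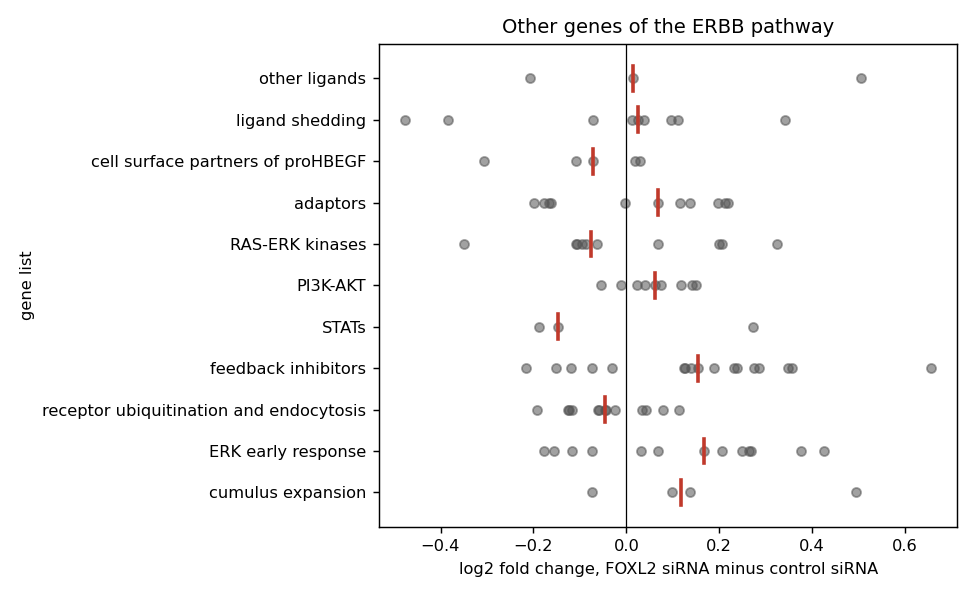
Log2 fold change (FOXL2 siRNA minus control siRNA) of the 97 other pathway genes tested, by list; points are genes and red lines are medians. No point passed edgeR's adjusted p of 0.05, and the medians run from -0.15 for the STATs to 0.17 for the ERK early response.

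Cumulus expansion is the follicular process that EGF-like ligands induce in the ovary. Of its 4 genes, PTX3, which cross-links the cumulus matrix, had 15.1, 16.9 and 18.5 CPM with the control siRNA and 22.1, 26.4 and 22.7 CPM with the FOXL2 siRNAs. The conditions did not overlap, and the log2 fold change was 0.49 (adjusted p = 0.108 with edgeR and 0.0110 with DESeq2). HAS2, the hyaluronan synthase, had 69.9, 67.1 and 72.0 CPM against 116, 50.7 and 63.0 CPM, where 1 FOXL2 siRNA library was high and the other two were below every control library. PTGS2 and TNFAIP6 had at most 1.43 CPM in every library.

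The genes most like HBEGF across the 6 libraries, by Pearson correlation of log2 CPM, were SLC46A1, HEG1, LINC01116, KIAA1671 and RNF24. Their r with HBEGF lay between 0.990 and 1.000, over 6 points that share their libraries and their split into conditions. The log2 fold changes were smaller than that of HBEGF, from 0.14 for SLC46A1, a folate transporter, to 0.40 for KIAA1671, and edgeR called none of the 5, whose adjusted p ran from 0.0914 to 0.499. With the condition means removed, r lay between 0.816 and 0.996. The 5 genes were picked for a high r over these same values, so nothing is read from this r. Among the members, the r with HBEGF was -0.90 for ADAM17, -0.75 for NRG1 and 0.28 for BTC, as a description of these 6 libraries.

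Because the KD was made to ask about G2-rich RNA, the longest annotated transcript of each member was searched for 8 G doublets spaced by 1 to 4 nucleotides. The study itself compared the responding genes with a list of RNAs reported to form G-quadruplexes (folds of G-rich RNA) in vitro. This search of letters does not tell which members are on that list. The motif of 8 doublets was not in HBEGF and was found in ERBB2 only, beside 19.3% of 15530 tested genes (2993). The match lies at bases 4461 to 4489 of a 4930-base ERBB2 transcript that is annotated as a retained intron and has no coding sequence. It is shown with the 8 doublets in capitals.
ERBB2: GGaGGaGGgtGGgaGGtcctGGgtGGaGG
In the promoter windows of RefSeq (GRCh38.p14, 250 bases before to 50 after the start, searched on either strand), the forkhead letters GTAAACA were found in BTC, beside 3.42% of 35116 windows, and the AP-1 letters TGACTCA in 1 of the EGFR windows, beside 4.95%. The HBEGF window held neither, which says only that these letters are not in its 300 bases. ERBB3 had no entry, and the window of NRG1 was left out of this search.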

How the data were processed

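Genome-edited KGN cells gave 6 RNA-seq libraries, grouped by siRNA, with replicate numbers from the labels. Directional mRNA libraries were aligned by the authors with STAR 2.7.6a, checked with Picard 2.8.1 and quantified with RSEM 1.3.1. The submitters' processing notes list GRCm38, a mouse build, whereas the gene identifiers in the tables are human, and the annotation release is not given in the sources used here. The deposited expected counts are estimated counts that the authors did not normalize, and the deposited TPM values were scaled by RSEM to library and effective length. Effective lengths, which the authors deposited per gene and library, were used as offsets only in alternative fits of edgeR and DESeq2, not in the reported fit. FPKM values were not used.

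Expected counts were rounded. Of 60671 genes, 15663 passed filterByExpr of edgeR 4.0.16 (R 4.3.3). After TMM, the conditions were compared with glmQLFit and glmQLFTest, with Benjamini-Hochberg adjustment over all genes tested and a threshold of 0.05. Standard errors are the log2 fold change divided by the square root of F. The script was tested on simulated data. Total counts lay between 23843192 and 28791954 per library, and low counts carry counting error in addition to the spread shown.

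The members and the gene lists were chosen with earlier results of these data known. The genes named are the members, FOXL2 and the 5 genes most correlated with HBEGF. Some further list genes (CD9, RHBDF2, OAS2, EGR1, FOS, FOSL1, JUN, ETV4, PHLDA1, CCND1, HAS2, PTGS2, TNFAIP6) were chosen after their values were seen. From each pathway list, the genes past the threshold are named or, where a list had none, the 1 of smallest unadjusted p. For the RAS-ERK list, the gene that this rule picks is not reported here. The fit was repeated with DESeq2 1.42.0, with limma-voom, with limma 3.58.1 on log2(TPM + 1) where the mean TPM reached 1, and in edgeR with DESeq2's size factors, no filter, a mean of at least 50 counts, effective lengths as offsets, the replicate number as a block, and each library left out. A first run of edgeR used its older quasi-dispersion estimate, and a first run of DESeq2 used the genes that pass the filter and other settings of its independent filtering. The newer estimate and DESeq2 on all genes were adopted after those calls had been seen, to follow earlier processing of these data, and the first runs are given as alternatives. The search for G2-rich motifs was also added after the data had been seen.

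Loci and coding sequences come from GENCODE v29 on GRCh38, possibly not the release that the authors used. The principal coding transcript of each gene was translated and aligned with Biopython 1.88. Python 3.11.15 was used with pandas 2.3.3, numpy 2.4.6 and matplotlib 3.10.9.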

Additional observations from a re-analysis of the deposited data

How the results depend on the processing

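The log2 fold change of HBEGF lay between 0.78 and 0.92 under all 21 alternatives and moved by less than 1 SD of the replicates in each. Its adjusted p passed the threshold under 17 of them and missed it in 4 of the 6 fits that left out 1 library, and the members called numbered 0 to 1 over those 6 fits. The signs of AREG, BTC, NRG1, ERBB3 and ADAM17 held under every alternative, while EREG changed sign in 5 of 20, ERBB2 in 2 of 21 and EGFR in 1 of 21. HBEGF had rank 5 among the members in control libraries under each alternative tried.

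The number of genes called over all genes tested depended on the processing. Against 40 as reported, it was 353 with DESeq2, 344 with DESeq2 and effective lengths as offsets, 64 when a mean count of 50 was required, 70 without the filter and 13 with limma on log2(TPM + 1), and it ran from 2 (without control siRNA replicate 1 or 3) to 579 (without FOXL2 siRNA replicate 2). Among the alternatives added after the data had been seen, the older quasi-dispersion in edgeR gave 41, or 737 with no filter, and DESeq2 gave 335 on the genes that pass the filter, 333 on these with independent filtering at 0.05 and 348 on all genes at 0.05. The pathway genes called were 0 as reported, 3 with DESeq2 in each of its 4 runs without offsets, 1 and 8 with effective lengths as offsets in edgeR and DESeq2, 9 with the older quasi-dispersion and no filter, and 0 to 8 with 1 library left out. The causes were not tested.

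With the replicate number as a block, edgeR called 11 genes (11 with the older quasi-dispersion), HBEGF among them with a log2 fold change of 0.83, and 0 pathway genes. The labels number both conditions alike and do not say whether same-numbered libraries belong together. The correlations of same-numbered deviations were -0.03, 0.05 and 0.05, and those of differently numbered ones ran from -0.11 to 0.08. With 3 libraries per condition, these values cannot decide whether the libraries are paired. With 3 libraries per condition and 4 to 15 counts of TGFA, small differences were not detectable at this depth.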
